A study of Homo sapiens with 34 samples.

Results

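VCaP and MDAPCa2a, both human prostate cancer lines derived from bone metastases, were compared on amorphous calcium phosphate (ACP), a mineral coating of the culture surface, with added androgen. The comparison takes every library that the labels give to these lines on ACP with androgen, which is 4 of the 34 libraries of the series, 2 per line. The series measured gene expression by RNA sequencing in 4 prostate lines on plastic or ACP. The media were a control medium, one whose serum had been stripped of steroids with charcoal dextran, and stripped medium plus androgen, which gives 17 groups.

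In both androgen groups cells were kept for 4 days on ACP with 1 change of medium on day 2. The androgen is called DHT in the sample titles and testosterone in the condition labels, and its labelled concentration is 100 mM. Each line had its own medium. VCaP was grown in 10% FBS in a mix of DMEM and F12, and MDAPCa2a in BRFF-HPC1 with 20% FBS. The protein coating that MDAPCa2a received on plastic was not used on ACP. Line and medium therefore cannot be told apart in any comparison between the lines. Each line stands for 1 tumour, and nothing in the labels says that replicates came from separate cultures, so the p-values measure only the spread between these libraries, which may be technical. The same line comparison was made in libraries not shared with the first: on ACP in stripped serum without androgen (2 against 2), and on plastic in control medium, labelled as continuous culture (2 against 2).

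Androgens are steroid hormones that in luminal prostate cells switch on genes of secreted proteases, lipid enzymes and membrane transporters and lower a smaller set of genes. Many prostate tumours join the androgen-driven TMPRSS2 promoter to the ETS transcription factor gene ERG, and VCaP is a standard model of that fusion. Bone is the main site to which prostate cancer spreads, and calcium phosphate is the mineral of bone.

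The 4 libraries held between 16.7 and 23.7 M counted reads, within the series range of 15.4 to 44.8 M, where M is the denominator of CPM (counts per M reads). Replicate libraries differed by more than sampling noise and correlated on the log2 CPM scale across genes at r = 0.9788 in VCaP and 0.9855 in MDAPCa2a. Between lines that correlation lay between 0.8565 and 0.863. The 9 markers of luminal prostate epithelium, among them KLK3, KRT8 and HOXB13, summed to between 9943 and 15303 CPM in VCaP and between 13276 and 14802 CPM in MDAPCa2a. The 5 basal markers summed to between 23.9 and 29.4 CPM in VCaP and between 33.7 and 37.4 CPM in MDAPCa2a, and none of them passed the test. Both lines thus carried the luminal label's markers.

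VCaP and MDAPCa2a differed in many genes. Of 17323 genes tested with edgeR's quasi-likelihood test, 8898 (51.4%) had a Benjamini-Hochberg adjusted p below 0.05, 4651 higher in VCaP (26.8%) and 4247 lower (24.5%). Counts of called list members below are to be read beside these shares of all genes. All log2 differences below are VCaP minus MDAPCa2a unless stated otherwise, and the median over all genes tested was 0.04. In 8861 of the 8898 genes the 2 libraries of each line did not overlap. Genes called from these same libraries mostly separate by construction, so this count adds no support. The share over all genes tested was not counted. Large differences leaned to VCaP: 1676 called genes were higher by a log2 difference of at least 3 and 637 lower. At a log2 difference of at least 5 these counts were 1053 and 257.

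**Figure D1:**
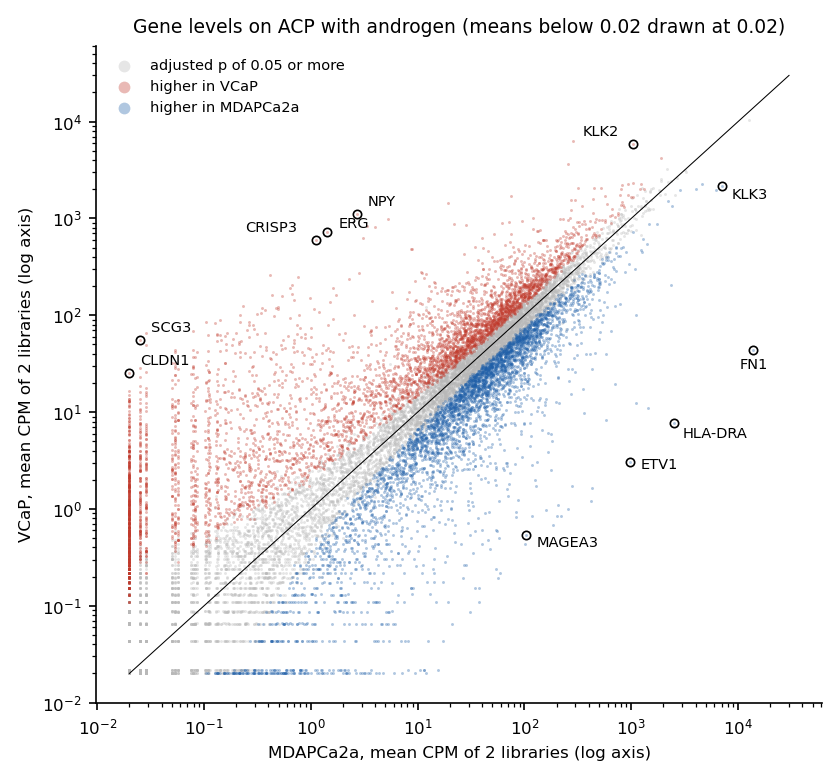
Mean CPM of the 2 libraries on ACP with androgen in MDAPCa2a (x axis) and VCaP (y axis), both on log axes, 1 point per tested gene, coloured by the call of edgeR's quasi-likelihood test, with means below 0.02 drawn at 0.02. Of 17323 genes tested 4651 were higher and 4247 lower in VCaP, with FN1, HLA-DRA, ETV1 and MAGEA3 far on the MDAPCa2a side of the diagonal and NPY, ERG and CRISP3 far on the VCaP side.

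Ranked by the fitted log2 difference, which depends on the prior count where a line had no read, the 12 genes named as highest in VCaP all had no read in MDAPCa2a. They are given as lower bounds on the ratio of CPM, and genes with 1 read there, described further on, reached higher ratios. CLDN1, a tight junction protein, had 20.3 and 30.6 CPM in VCaP and no read in MDAPCa2a, and was at least 316-fold higher, taking 3 counts over the 2 MDAPCa2a libraries as the limit that a count of 0 allows. The same bound was at least 206-fold for ECHDC3, 189-fold for the homeobox gene HOXA9, 171-fold for the dopamine receptor DRD2, 168-fold for the orphan nuclear receptor ESRRG and 145-fold for the angiotensin receptor AGTR1. For TLR4, a receptor for bacterial lipopolysaccharide, and UGT2B10, an enzyme that conjugates steroids, the bound was 162-fold. TMEM26, RAB39A, KCNN3 and SEMA3E had bounds between 142-fold and 161-fold. On the MDAPCa2a side CTAG2, a cancer-testis antigen, had 12.8 and 11.1 CPM against no read in VCaP and was at least 183-fold lower in VCaP.

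Among the genes named for their size toward MDAPCa2a, several were also counted in VCaP. FN1, which encodes the matrix protein fibronectin, had 38.6 and 48.7 CPM in VCaP and 13428 and 13908 CPM in MDAPCa2a. Its log2 difference was -8.29 ± 0.47 (SE, n = 2 per line, adjusted p 1e-12 by edgeR's quasi-likelihood test). HLA-DRA, an MHC class II chain that presents peptides, had 7.57 and 7.84 CPM in VCaP against 2952 and 2111 CPM in MDAPCa2a, a log2 difference of -8.36 ± 0.51. DAPL1 had 1.21 and 1.23 CPM against 538 and 305 CPM. TLL1, a protease of the BMP1 family, had 0.13 and 0.0876 CPM against 29.9 and 45.1 CPM, and the adhesion protein TENM2 0.173 and 0 CPM against 39.5 and 22.4 CPM.

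In a count made without a test, 117 of the 10303 genes with at least 5 CPM in both VCaP libraries (1.14%) had at most 3 reads over both MDAPCa2a libraries. In the other direction the count was 18 of 10319 (0.174%), while 9425 genes had at least 5 CPM in all 4 libraries. MDAPCa2a had fewer reads, 16.7 and 19 M against 23.7 M in each VCaP library. The limit of 3 reads thus stands for 0.0805 CPM in MDAPCa2a and 0.0653 CPM in VCaP, and is looser for genes restricted to VCaP. In stripped serum 52 of the 117 and 8 of the 18 met the same rule. GDA, which encodes guanine deaminase, had 66.7 and 65.6 CPM in VCaP and 1 read in MDAPCa2a, a ratio of 2460 with an exact 95% counting interval of 442 to 97400. SCG3, a secretory granule protein, had 62.9 and 47.7 CPM and 1 read, a ratio of 2060 (369 to 81400). On the MDAPCa2a side TWIST1, a transcription factor of mesenchymal development, had 17.9 and 23.6 CPM against 3 reads in VCaP, a ratio of 321 (109 to 1560). CBLN2, with 12.2 and 18.7 CPM, had 1 read in VCaP and a ratio of 719 (129 to 28400), and the protocadherin PCDH20 had 2 reads and a ratio of 407 (112 to 3370). CSAG1, SHISA9 and GABRA3, a GABA receptor subunit, had 1 read each and ratios of 522, 537 and 482. These intervals and limits cover counting error only.

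The lineage factors FOXA1, HOXB13 and GATA2 were not called between the lines with androgen. FOXA1, which opens chromatin for other factors, had 789 and 536 CPM in VCaP and 768 and 960 CPM in MDAPCa2a (adjusted p 0.122), though without VCaP replicate 1 it was called lower in VCaP (-0.69, adjusted p 0.0231). HOXB13, a homeobox factor of prostate identity, had 642 and 571 CPM against 728 and 837 CPM (adjusted p 0.236), and GATA2 453 and 316 CPM against 465 and 555 CPM (adjusted p 0.115). Over the 22 lineage transcription factors listed, 6 were higher in VCaP, 6 were lower and 10 did not pass, with a median log2 difference of -0.07. LHX2, a LIM homeobox factor, was among the higher ones, with a log2 difference of 6.55. CDX2, an intestinal homeobox factor, and NR3C1, the glucocorticoid receptor, were among the lower ones, at -2.66 and -2.86. NR3C1 had 6.32 and 8.98 CPM in VCaP and 51.2 and 60.2 CPM in MDAPCa2a.

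The promoters of KLK3 and KLK2 are shown because these neighbouring kallikrein genes are the classical androgen targets and differed in opposite directions between the lines. Each sequence is the 250 bases before the gene's start from RefSeq, build GRCh38.p14, while the deposited counts were made on hg19. They lie on the plus strand at chr19:50854665-50854914 for KLK3 and chr19:50873189-50873438 for KLK2. Capitals mark the match to an androgen response element pattern, GNACA, then any 4 bases, then GTNC, which was searched on both strands.
KLK3: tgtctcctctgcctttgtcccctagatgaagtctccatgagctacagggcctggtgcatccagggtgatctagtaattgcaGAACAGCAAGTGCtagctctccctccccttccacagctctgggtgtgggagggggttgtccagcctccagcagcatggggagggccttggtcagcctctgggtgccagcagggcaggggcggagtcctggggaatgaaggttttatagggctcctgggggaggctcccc
KLK2: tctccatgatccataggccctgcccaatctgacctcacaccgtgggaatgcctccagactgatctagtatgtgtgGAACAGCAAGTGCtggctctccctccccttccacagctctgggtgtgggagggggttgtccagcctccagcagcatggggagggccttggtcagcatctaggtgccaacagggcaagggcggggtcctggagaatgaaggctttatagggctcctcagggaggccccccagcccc
Both promoters hold the same 13 letters, GAACAGCAAGTGC, at 169 to 157 bases before the start of KLK3 and at 175 to 163 bases before that of KLK2. Over 257 aligned columns 205 bases were identical (79.8%). The pattern was found in 634 of 35116 windows of this length (1.81%). Among 39 windows of 22 androgen-induced genes it was found in 3 (7.69%), those of CENPN, KLK2 and KLK3. A shorter pattern, AGAACA, was found in 12.4% of all windows and in 3 of those 39, and it can overlap the longer one. A match describes letters only.

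KLK3, which encodes prostate-specific antigen, had 3446 and 840 CPM in VCaP and 6772 and 7286 CPM in MDAPCa2a with androgen, a log2 difference of -1.71 ± 0.52 (adjusted p 0.00816). Without VCaP replicate 2 it was -1.06 and not called (adjusted p 0.129), and without replicate 1 it was -3.06. In stripped serum it had 36.1 and 120 CPM in VCaP and 11697 and 7006 CPM in MDAPCa2a, a difference of -6.90. The VCaP libraries lay below those of MDAPCa2a in both media, and the gap was far wider without androgen. KLK2, a related protease, had 6649 and 5016 CPM in VCaP against 957 and 1113 CPM in MDAPCa2a, a difference of 2.49 ± 0.69 (adjusted p 0.00407). In stripped serum KLK2 had 2985 and 3223 CPM against 1437 and 1085 CPM (1.30, adjusted p 0.11), a difference that was called when only VCaP and MDAPCa2a libraries were fitted (adjusted p 0.00048). The 2 genes are similar in sequence, and how reads that fit both were counted is not given in the sources used here.

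Of the 27 androgen-induced genes listed, 16 were higher in VCaP, 4 lower and 7 did not pass, with a median log2 difference of 1.13. In stripped serum, where 48.4% of all genes were called between the lines (26.1% higher in VCaP and 22.4% lower), 6 of the same genes were higher in VCaP and 12 lower, with a median of -0.13. STEAP4, a metalloreductase, had 831 and 426 CPM in VCaP with androgen against 3.78 and 2.32 CPM in MDAPCa2a, a difference of 7.69 ± 0.92 (adjusted p 2.08e-07). TRPM8, a cold-sensing calcium channel, had 1759 and 1123 CPM against 16.6 and 21.6 CPM (6.23), and MAF, a leucine zipper factor, 17.6 and 18.5 CPM against 0.63 and 0.455 CPM (5.05). FKBP5, a co-chaperone of steroid receptors, had 1054 and 768 CPM against 365 and 290 CPM, a difference of 1.48 ± 0.29 (adjusted p 0.000129). The 4 lower members included KLK3, TSC22D3, which had 3.98 and 4.51 CPM in VCaP and 83.7 and 88 CPM in MDAPCa2a (-4.34), and the drug transporter ABCC4 (-1.77). TMPRSS2, a membrane serine protease, overlapped between the lines at 926 and 476 CPM against 909 and 854 CPM (-0.33, adjusted p 0.542). VCaP replicate 1 was above replicate 2 in 19 of the 25 list members with at least 1 CPM, and at least 1.5 times above it in 11. The same shares over all genes were not counted, so nothing is read from these counts about the androgen response.

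Genes listed as lowered by androgen were mostly higher in VCaP. Of 13 tested, 9 were higher and 1 was lower, with a median log2 difference of 4.04. In stripped serum 9 were also higher and 2 lower, with a median of 3.03. Within VCaP androgen raised 4 of the 13 and lowered 3, against 12.6% and 13.6% of all genes tested. In MDAPCa2a 0 of the 13 were called, where 1 of all 17323 genes tested was. UGT2B7, a glucuronosyltransferase that inactivates steroids, had 8.22 and 12.5 CPM against no read, at least 129-fold higher in VCaP, and AKR1C3, which makes testosterone from androstenedione, had 24.9 and 63 CPM against 3 reads (ratio 544). The UGT2B genes are near copies of each other, so their single counts are uncertain. DDC, an aromatic amino acid decarboxylase, was the lower one with androgen, at 13.4 and 10.2 CPM against 38.6 and 80.8 CPM. In stripped serum DDC was not called between the lines (0.73, adjusted p 0.239 by edgeR's quasi-likelihood test).

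The difference between the lines itself depended on androgen. The test of the androgen effect in VCaP minus that in MDAPCa2a, which uses the same androgen libraries, called 1362 of 17323 genes (7.86%), 623 higher (3.6%) and 739 lower (4.27%). Within lines on ACP, in the fit of all lines, androgen against stripped serum called 4545 genes in VCaP (26.2%), 2184 higher (12.6%) and 2361 lower (13.6%), and 1 in MDAPCa2a (0.00577%). At an unadjusted p below 0.05 the counts were 6580 (38%) and 397 (2.29%), and DESeq2 called 4812 and 1. A share of 0.05 is what such a threshold gives on average where no gene changes, so the 397 are no excess. In stripped serum some genes differed widely between replicates, such as E2F1 in MDAPCa2a (1.97 and 22.6 CPM) and CHGA in VCaP (125 and 697 CPM). Whether such spread lowered the MDAPCa2a count was not tested, and the 1 call is no evidence that MDAPCa2a did not respond. The median absolute log2 change with androgen over all genes tested was 0.528 in VCaP and 0.184 in MDAPCa2a. The VCaP count was 2386 without replicate 2 with androgen and 2528 without replicate 1 in stripped serum. The MDAPCa2a count was 39 without replicate 2 in stripped serum and 0 without any other of its libraries on ACP. Of the 1362 genes, 1341 (98.5%) also had a called androgen effect in VCaP and 1 in MDAPCa2a. Those effects are terms of the test of their difference, from the same libraries, so the overlap is partly built in and no separate evidence. The line difference was smaller with androgen in 654 of the 1362 genes and larger in 708. Of the 1362 genes, 1114 had a mean of at least 1 CPM in all 4 groups. The count was 730 without replicate 1 of VCaP in stripped serum and 749 without replicate 2 of VCaP with androgen. It was 778 without replicate 1 of MDAPCa2a in stripped serum and 646 without replicate 2 of MDAPCa2a with androgen.

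Of the 27 androgen-induced genes, 13 had a higher androgen effect in VCaP and 0 a lower one, against 3.6% and 4.27% of all genes tested. The list was written with earlier results of these data known, so its counts are no independent evidence. Fitting only the libraries of the groups compared left 7 called. The 13 became 8 without MDAPCa2a replicate 1 in stripped serum, and 8 without MDAPCa2a replicate 2 with androgen. In VCaP 20 of the 27 rose with androgen and none fell, with a median log2 change of 1.37, and in MDAPCa2a none was called, with a median of -0.22. For KLK3 the effect was 4.78 ± 0.60 in VCaP (adjusted p 4.72e-06) and -0.41 in MDAPCa2a, and their difference was 5.19 ± 0.76 (adjusted p 0.000211). TMPRSS2 had 89.8 and 96.6 CPM in VCaP in stripped serum and 1302 and 875 CPM in MDAPCa2a, and its androgen effects differed by 3.21 ± 0.62 (adjusted p 0.00244). FKBP5 had 62.5 and 121 CPM in VCaP in stripped serum against 380 and 320 CPM in MDAPCa2a. Its order between the lines was thus the opposite of that with androgen, and the effects differed by 3.41 ± 0.41 (adjusted p 1.77e-05). STEAP4 was at 3.8 and 7.17 CPM in VCaP and 4.2 and 3.37 CPM in MDAPCa2a in stripped serum, with no call between the lines (adjusted p 0.592), and its effects differed by 7.15 ± 1.15 (adjusted p 0.000454).

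Other genes gave the largest differences of androgen effect. SLC5A1, an intestinal and renal glucose transporter, had 50.2 and 33.8 CPM in VCaP with androgen and 0 and 0.287 CPM without it, while MDAPCa2a stayed between 0.954 and 2.12 CPM (difference of effects 7.65 ± 0.90, adjusted p 1.56e-05, and 12.77 without VCaP replicate 2 in stripped serum, since replicate 1 had no read). PGC, which encodes the pepsinogen progastricsin, had 39.8 and 44.5 CPM in VCaP with androgen and 0.341 and 0.697 CPM without, against 103 and 65.8 CPM and 387 and 66.4 CPM in MDAPCa2a (7.72, adjusted p 0.000264). F3, the tissue factor that starts coagulation, had 280 and 83.5 CPM with and 6.73 and 13.2 CPM without androgen in VCaP, against 104 and 81.9 CPM and 377 and 90.5 CPM in MDAPCa2a (5.51, adjusted p 9.05e-05). SEMA3G, a semaphorin, had 2.42 and 1.27 CPM with androgen and no read without it in VCaP, and between 27.6 and 34.4 CPM in MDAPCa2a (8.65, adjusted p 0.000381). Its fitted value depends on the prior count because of those 0 counts.

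In the other direction NAALAD2, a peptidase related to PSMA, had 4.5 and 8.23 CPM in VCaP with androgen and 274 and 461 CPM without it, against at most 0.505 CPM in MDAPCa2a (difference of effects -8.20 ± 1.44, adjusted p 0.00103). Its 2 media did not overlap in VCaP. SEZ6, the adenylyl cyclase ADCY2, CSRNP3 and the neuronal intermediate filament gene INA also had lower effects in VCaP, at -8.12, -7.80, -7.46 and -6.94. All 4 had no read in MDAPCa2a in stripped serum, so these fitted values depend on the prior count. None of the 4 was called without replicate 1 (adjusted p 0.0641 to 0.0956) or replicate 2 (0.0515 to 0.0759) of MDAPCa2a in stripped serum. CSRNP3 and SEZ6 were not called without MDAPCa2a replicate 1 with androgen, ADCY2, INA and SEZ6 without replicate 2, and SEZ6 without VCaP replicate 2 with androgen. INA itself had 134 and 103 CPM with and 146 and 126 CPM without androgen in VCaP. FOLH1, which encodes the surface antigen PSMA, had 142 and 272 CPM in VCaP with androgen and 1845 and 1547 CPM without. In MDAPCa2a it stayed between 2178 and 2634 CPM. Between lines it differed by -3.51 ± 0.42 with androgen (adjusted p 1.88e-07) and by -0.59 in stripped serum (adjusted p 0.206), and the effects differed by -2.92 ± 0.55 (adjusted p 0.00178).

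**Figure D2:**
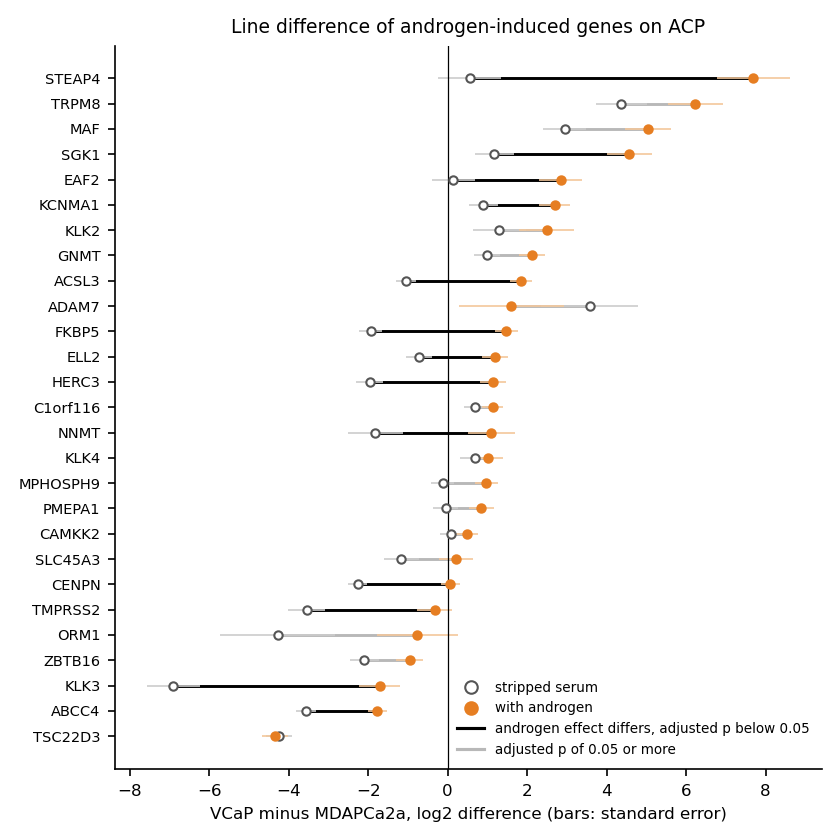
Log2 difference (VCaP minus MDAPCa2a, x axis, bars are standard errors) of each androgen-induced gene on ACP in stripped serum (open points) and with androgen (filled points), joined by a line that is black where the androgen effects differ between the lines and grey otherwise. The list's median moves from -0.13 without androgen to 1.13 with it, and KLK3 stays below 0 in both. The list was written with earlier results of these data known.

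Most line differences were also present in the other media. Of the 4651 genes higher in VCaP with androgen, 3078 were also higher in stripped serum, which is 66.2% of them and 68.1% of the 4517 higher there. Of the 4247 lower genes, 2754 were also lower there (64.8%, and 71.1% of the lower genes there), and 62 genes of each direction were called the opposite way. On plastic, where 52.4% of genes were called (27.3% higher and 25.1% lower), 3222 higher and 2932 lower genes were shared. In all 3 comparisons 5214 genes were called the same way, 58.6% of the 8898, and 1755 of the 2313 with an absolute log2 difference of at least 3 (75.9%). No library is shared between these comparisons, though the fit is.

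The ETS factors split by line. Of 12, 5 were higher in VCaP and 5 lower, with a median log2 difference of 0.34. ERG had 882 and 574 CPM in VCaP against 1.55 and 1.26 CPM in MDAPCa2a, a difference of 9.02 ± 0.58 (adjusted p 6.31e-12). ETV1 had 3.25 and 2.8 CPM against 1021 and 928 CPM, a difference of -8.33 ± 0.38 (adjusted p 1.72e-14). Each line therefore had a highly counted ETS gene that was low in the other. EHF, another ETS factor, was highly counted in both, at 358 and 408 CPM in VCaP against 530 and 523 CPM in MDAPCa2a (-0.46). ETV4 and ETV5 were also lower in VCaP, at 2.77 and 3.15 CPM against 28.2 and 33.8 CPM and at 0.303 and 1.53 CPM against 40 and 46.1 CPM. ELF5 and ETS1 were higher in VCaP, by 6.22 and 4.38.

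Of 14 genes known to accompany ERG fusions, 13 were tested, 10 were higher in VCaP and 1 was lower, with a median of 4.25. CRISP3, a secreted cysteine-rich protein, had 588 and 602 CPM against 1.03 and 1.21 CPM, a difference of 9.04 ± 0.76. ARHGDIB, an inhibitor of small GTPases, had 92 and 157 CPM against 0.115 and 0.354 CPM (8.99). KCNH8, a potassium channel, had 28 and 15.1 CPM against 2 reads, a ratio of 402. The phospholipase PLA1A had 199 and 300 CPM against 0.745 and 0.758 CPM, and the germline gene TDRD1 66.4 and 60.6 CPM against 0.172 and 0.455 CPM. These lists were drawn from knowledge of other tumours and cell lines, VCaP among them, and with earlier results of these data known. They are no independent evidence for VCaP.

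Prostate surface and secreted antigens were called in both directions. Of 21, 20 were tested, and with androgen 10 were higher and 5 lower in VCaP, with a median of 1.23. In stripped serum 8 were higher and 6 lower, with a median of 0.40, and on plastic 7 were higher and 9 lower. NPY, a neuropeptide, had 1326 and 881 CPM in VCaP against 2.98 and 2.48 CPM, a difference of 8.66 ± 1.03. AGR3, a disulfide isomerase of secretory cells, had 31.4 and 27.9 CPM against 2 reads (ratio 553), and its relative AGR2 had 2071 and 1337 CPM against 82 and 66.1 CPM. ACPP, prostatic acid phosphatase, had 7775 and 4882 CPM against 359 and 206 CPM, a difference of 4.49 ± 0.74. The racemase AMACR had 904 and 493 CPM against 74.2 and 75.9 CPM with androgen (3.22), but was lower in VCaP in stripped serum (-1.99) and on plastic (-0.79). SPINK1, a trypsin inhibitor, had 2.9 and 7.88 CPM against 1 read (ratio 200). The lower ones in VCaP included FOLH1, AZGP1, which encodes a zinc-binding glycoprotein and had 10.6 and 6 CPM against 753 and 415 CPM (-6.14), and the noncoding RNA PCA3 (-2.09, and -1.63 with an adjusted p of 0.0706 without VCaP replicate 2).

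Epithelial genes differed by member. Of 14 keratins and basal genes, 1 was higher and 2 were lower in VCaP. KRT18 had 696 and 674 CPM against 314 and 317 CPM, a difference of 1.12 ± 0.20 (adjusted p 6.04e-05), while its partner KRT8 had 1042 and 896 CPM against 844 and 754 CPM (adjusted p 0.302). KRT19 and KRT80 were lower in VCaP, by log2 differences of -1.54 and -4.44. Of 27 adhesion and mesenchymal genes, 9 were higher and 7 lower, with a median of 0.61. Beside CLDN1, CDH17, an intestinal cadherin, was at least 92.1-fold higher in VCaP, and the epithelial adhesion molecule EPCAM had 476 and 595 CPM against 96.5 and 105 CPM. CDH3, P-cadherin, had 3.38 and 2.58 CPM against 60.6 and 72.6 CPM, a difference of -4.48 ± 0.40, and was lower in VCaP together with FN1 and TWIST1. CDH1, E-cadherin, overlapped in no library but did not pass, at 450 and 350 CPM against 514 and 561 CPM (adjusted p 0.0845). VIM, an intermediate filament of mesenchymal cells, stayed at or below 0.519 CPM in all 4 libraries.

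Neuroendocrine genes were higher in VCaP. Of 21, 16 were tested, 11 were higher and 1 lower, with a median of 5.71, and in stripped serum 15 of the 16 were higher. SCGN, a calcium-binding protein of endocrine cells, had 109 and 133 CPM against 0.688 and 0.303 CPM, a difference of 7.95 ± 0.62 (adjusted p 1.62e-10). CHGB, a granin, had 44.9 and 23.3 CPM against 0.115 and 0.101 CPM (8.25), and CHGA 54.1 and 41.1 CPM against 0.401 and 0.354 CPM. SYP, a synaptic vesicle protein, had 69.8 and 59.2 CPM against 1.89 and 1.77 CPM. INSM1, a zinc finger factor of neuroendocrine fate, had 61 and 50.5 CPM against 0.344 and 1.06 CPM. The VCaP libraries were above those of MDAPCa2a for each gene named here. The somatostatin receptor SSTR2, at most 0.859 CPM, was the one lower. Of 38 HOX genes 35 were tested, and 14 were higher and 4 lower, with a median of 1.86. The share called, 51.4%, was that of all genes tested. A mean of at least 1 CPM in either line was reached by 14 of the 35, so the median includes many genes of few reads. HOXA9 led the higher ones, with HOXD8 (ratio 94.9) and HOXA3 (ratio 93.2), while HOXC13, at 1.64 and 1.75 CPM against 11.7 and 14.2 CPM, and HOXC12 were lower.

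**Figure D3:**
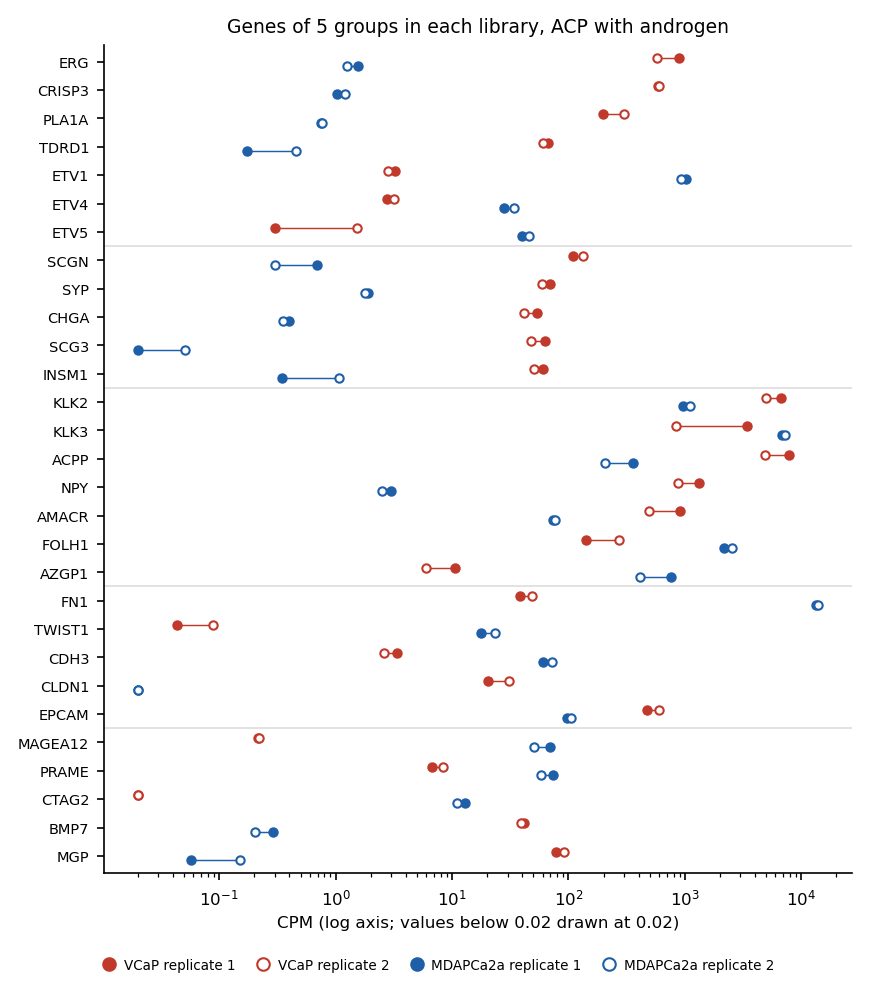
CPM (x axis, log) of genes of 5 groups on ACP with androgen, with 1 point per library and a line joining the 2 libraries of a line, values below 0.02 drawn at 0.02. ERG and its companions and the neuroendocrine genes lie high in VCaP, while ETV1, FN1 and TWIST1 lie high in MDAPCa2a.

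Genes of bone turnover did not move as a group. Of 28, 20 were tested, 7 were higher and 4 lower in VCaP, with a median of 0.60, and markers of osteoblasts and osteoclasts were near 0. MGP, an inhibitor of mineralisation, had 77.8 and 91.8 CPM in VCaP against 0.0573 and 0.152 CPM, a difference of 9.57 ± 0.82 (adjusted p 1.34e-09). GREM1, a BMP antagonist, had 15.5 and 20.3 CPM against 2 reads (ratio 334), and MSX2, a homeobox factor of skeletal cells, was at least 87.6-fold higher. The ligand BMP7 had 41.6 and 39 CPM against 0.287 and 0.202 CPM, and TNFRSF11A, the RANK receptor, 15.3 and 26.6 CPM against 1.09 and 0.556 CPM. Endothelin EDN1 was lower in VCaP (-4.92). DLX5 was called lower (-1.64), but not without VCaP replicate 2 (-1.14), MDAPCa2a replicate 1 (-1.87) or MDAPCa2a replicate 2 (-1.34). Of 27 calcium and phosphate genes 22 were tested, with 8 higher, 6 lower and a median of 0.13. The calcium pump ATP2A3 had 285 and 171 CPM against 9 and 9.7 CPM (4.61). The hormone STC1 was higher by 4.13. STC2 (-2.65), the vitamin D receptor VDR (-2.36, 10.3 and 18.5 CPM against 70.7 and 77.7 CPM) and the calcium channel TRPV6 (-1.36) were lower.

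Growth factor receptors were higher in either line. Of 24 genes of receptors and the IGF axis, 7 were higher and 9 lower in VCaP, with a median of 0.71. FGFR1 had 142 and 76.2 CPM against 12.6 and 12.3 CPM, a difference of 3.14 ± 0.35, IGFBP4 was higher by 2.88 and IGF1R by 2.26. MET, the hepatocyte growth factor receptor, was higher by 2.39, and by 1.29 without VCaP replicate 2 (adjusted p 0.0573). ERBB2 had 15.5 and 19 CPM in VCaP against 296 and 403 CPM, a difference of -4.34 ± 0.28 (adjusted p 6.74e-12), and ERBB3, its partner receptor, 21.6 and 20.8 CPM against 251 and 269 CPM. IGFBP3, which binds insulin-like growth factors, had 9.22 and 13.1 CPM against 1422 and 1434 CPM with androgen (-7.0 ± 0.92). In stripped serum IGFBP3 had 1869 and 195 CPM in VCaP, which spans the 1039 and 1274 CPM of MDAPCa2a, and its androgen effects differed by -6.83 ± 1.10 (adjusted p 0.000454). Without VCaP replicate 1 in stripped serum the line difference there was -2.62 and called (adjusted p 0.0106), against -0.17 with it, and the androgen effects differed by -4.40 (adjusted p 0.00675). The ligand IGF1 had a difference of -5.01. Of 22 steroid enzymes 16 were tested, 5 were higher and 5 lower, with a median of 0. AKR1C1, with 5.41 and 16.2 CPM against 1 read (ratio 401), and HSD3B1, with 2.21 and 3.55 CPM against 2 reads (ratio 53.5), were higher in VCaP. The sulfotransferase SULT2B1 (-6.51), HSD11B2, which inactivates cortisol (-3.71), and CYP11A1, which cuts the cholesterol side chain (-5.97, and -10.35 without VCaP replicate 2), were lower.

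Proliferation genes were higher in VCaP. Of 30, 23 were higher and 3 lower, with a median of 2.00, and in stripped serum 15 were higher and 2 lower. AURKA, a mitotic kinase, had 170 and 274 CPM against 13.6 and 14.8 CPM, a difference of 3.97 ± 0.38 (adjusted p 5.41e-09). CDC20, an activator of the anaphase-promoting complex, had 120 and 234 CPM against 14.4 and 18.8 CPM, and cyclin B1, CCNB1, 325 and 602 CPM against 46.5 and 44 CPM. The cell cycle inhibitors CDKN2A (-2.28) and CDKN1B (-0.69), which the list holds, and cyclin E1, CCNE1 (-1.58, and -0.97 and -2.70 without VCaP replicates 1 and 2), were the lower ones. Of 20 tumour suppressor and repair genes, 4 were higher and 6 lower. MSH6, a mismatch repair protein, was lower in VCaP, at 32.5 and 35.8 CPM against 88 and 104 CPM.

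Cancer-testis antigens, which are normally made in germ cells, were lower in VCaP. Of 23, 13 were tested, 10 were lower and 1 higher, with a median of -7.55. MAGEC1 and MAGEC2 had no read in VCaP and were at least 145-fold and 33.3-fold lower there. MAGEA12 had 0.216 and 0.219 CPM against 68.8 and 50.3 CPM. MAGEA3 and MAGEA6, near-identical copies whose counts are uncertain, had at most 0.613 CPM in VCaP and at least 98.6 CPM in MDAPCa2a. MAGED1, which somatic tissues express widely, was the higher one, by 1.2. Of 18 MHC class I genes 3 were higher and 4 lower, with a median of -0.45. B2M, the light chain, was higher by 1.05 ± 0.33, but was not called without VCaP replicate 2 (0.84) or MDAPCa2a replicate 2 (0.68). HLA-C had 77.8 and 131 CPM against 291 and 270 CPM (-1.43 ± 0.34, adjusted p 0.00111). HLA genes resemble one another, so their counts are uncertain. Of 13 prostate long noncoding RNAs tested, 4 were higher and 3 lower. LINC00844 had no read in MDAPCa2a and was at least 53.4-fold higher, NEAT1 (2.68, and 1.70 without VCaP replicate 1) and MALAT1 (1.95) were higher, and SCHLAP1 (-1.95) was lower.

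The calls of interferon-stimulated genes rested largely on 1 VCaP library. Of 24, 18 were called higher and 2 lower, with a median of 2.88, against 7 and 2 in stripped serum and 3 and 4 on plastic. VCaP replicate 2 was above replicate 1 in 22 of the 24 and at least 2 times above it in 20, while 3.03% of all genes were at least 2 times above. IFI6 had 6.1 CPM in VCaP replicate 1 and 119 CPM in replicate 2, against 4.64 and 2.73 CPM in MDAPCa2a. MX1, a GTPase that blocks viruses, had 1.3 and 61.3 CPM against 0.573 and 1.46 CPM. Replicate 1 thus lay within or close to the MDAPCa2a range for both genes. Over the list, replicate 1 was above both MDAPCa2a libraries in 13 of the 24 and replicate 2 in 21. Without VCaP replicate 2, 7 of the 24 were called, among them MX2, OAS1, OAS3 and IRF7 higher and IFITM2 and IFITM3 lower, with a median of 0.33. IFI44L had 0 and 9.72 CPM against 0 and 0.0505 CPM. IRF7, which activates interferon genes, had 33.7 and 55.8 CPM against 4.47 and 8.49 CPM and was called with and without that library. IFITM2, a membrane restriction factor, had 0.346 and 0.175 CPM against 12.1 and 10.4 CPM.

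**Figure D4:**
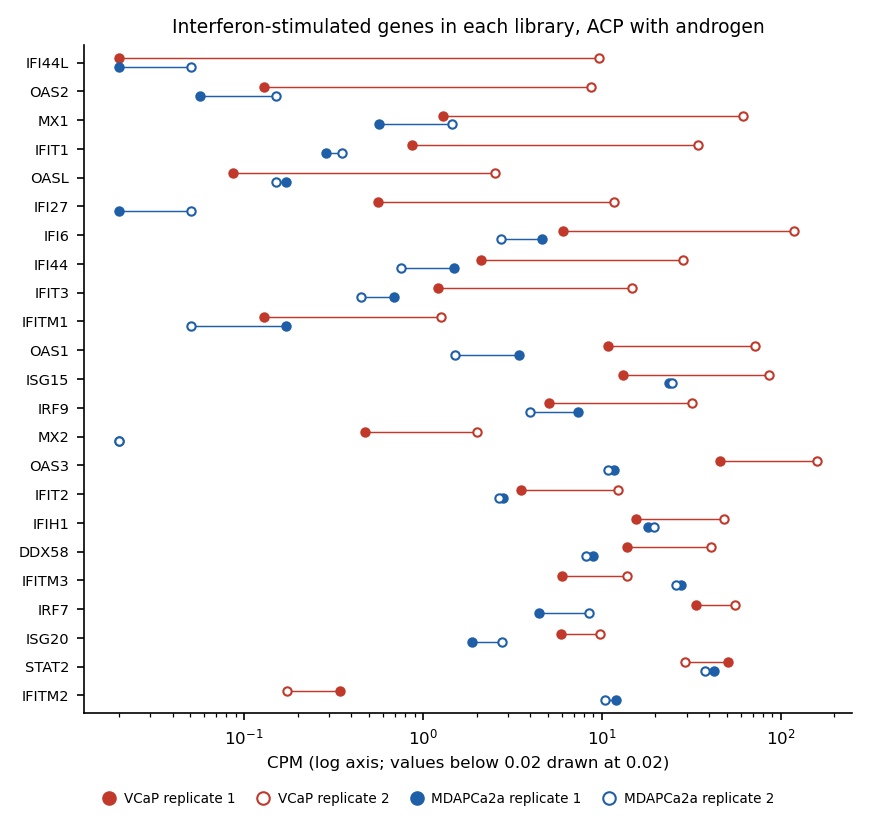
CPM (x axis, log) of 23 interferon-stimulated genes on ACP with androgen, with 1 point per library and a line joining the 2 libraries of a line, values below 0.02 drawn at 0.02. VCaP replicate 2 lies above VCaP replicate 1 in 21 of them.

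Markers of other cell types were low or limited to a few genes. The 9 blood markers summed to 82.6 to 156 CPM in VCaP and 0.303 to 0.401 CPM in MDAPCa2a, nearly all of it lysozyme, LYZ, at 81.2 and 154 CPM in VCaP. HBA1 and HBB had no read in any of the 4 libraries. The 8 hepatocyte markers summed to 29.9 to 76.5 CPM in VCaP and 2.27 to 3.04 CPM in MDAPCa2a, led by ALB at 15.3 and 64.8 CPM, and FGA and FGG had no read. The 6 endothelial markers summed to 12.2 CPM in both VCaP libraries and 0.354 to 0.802 CPM in MDAPCa2a, and the 8 fibroblast markers to 7.75 to 8.63 CPM and 1.09 to 1.72 CPM. Of these 4 lists 2, 3, 2 and 2 members were called, all higher in VCaP. The part of other cells in the line differences was not tested. In bulk RNA, fewer cells of a type and less RNA per cell cannot be told apart.

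Of the 6 most counted genes of each line, 1 was common to both. CPM is not corrected for transcript length, so it ranks reads and not transcripts. The common one, EEF1A1, a translation elongation factor, had 9130 and 11830 CPM in VCaP and 14381 and 11162 CPM in MDAPCa2a (adjusted p 0.401), so that its libraries overlapped. NDRG1, a stress-responsive gene, was among the most counted in VCaP, at 4341 and 3025 CPM against 312 and 195 CPM (3.86 ± 0.46). GAPDH, also among them, was higher in VCaP by 1.15 ± 0.20. ACPP, KLK2 and RPS18 were the others in VCaP. In MDAPCa2a the other most counted genes were FN1, KLK3, EEF2, RPL8 and SPON2. EEF2, another elongation factor, had a log2 difference of -1.66 ± 0.27.

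Line differences were uneven over chromosomes. Of the genes tested 16913 (97.6%) were matched to a chromosome through RefSeq. On chromosome 21 the median log2 difference was 0.87, with 96 of 177 genes higher in VCaP (54.2%) and 13 lower. On chromosome 16 it was -0.78, with 401 of 758 genes lower (52.9%) and 72 higher. The SE of these medians from the 2 libraries of each line was 0.0592 and 0.0673. Chromosomes 20 and 11 had medians of 0.41 and 0.34, and all others lay between -0.19 and 0.32. ERG and TMPRSS2 lie on chromosome 21.

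**Figure D5:**
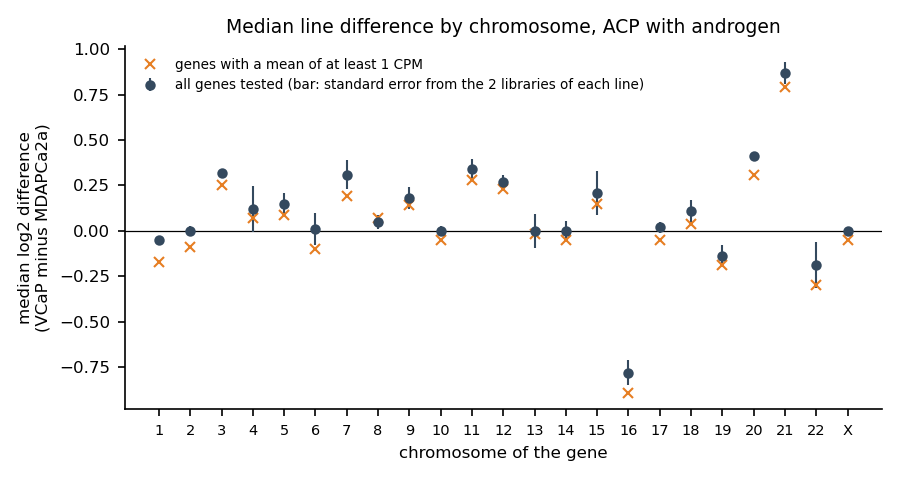
Median log2 difference between VCaP and MDAPCa2a on ACP with androgen for the tested genes of each chromosome, with the standard error from the 2 libraries of each line, and crosses for genes with a mean of at least 1 CPM. Chromosome 21 lies highest at 0.87 and chromosome 16 lowest at -0.78.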

How the data were processed

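Poly(A)-selected libraries were sequenced from column-purified RNA, per the labels' protocols. The authors deposited 1 table of unnormalized whole-number counts, reads per gene symbol, for 26336 genes in 34 libraries. STAR, HTSeq and the build hg19 are named in the submitters' processing notes. Aligner version, annotation and strand use were not given in the sources used here, so overlapping and antisense genes and near-identical copies are uncertain. Each column was matched to its sample by name. Some values of month-like gene names in the RWPE plastic control columns look like spreadsheet dates and were kept.

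Genes were tested with edgeR 4.0.16 in R 4.3.3 (limma 3.58.1): quasi-likelihood F test with TMM size factors, genes kept by filterByExpr (minimum count 10), 1 fit of 17 group means over all 34 libraries with 17 residual degrees of freedom, and Benjamini-Hochberg adjustment over 17323 genes, with a threshold of 0.05. The log2 differences have an SE equal to their size divided by the square root of F. CPM use TMM library sizes. A count of 0 was taken to allow 3 counts over the group, and exact intervals are at 95%. The sources name no batch. Promoters, motifs and chromosomes come from RefSeq by symbol. The script was tested on simulated counts.

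The members, gene lists and tests were chosen with earlier results of these data known. Named were the 12 largest differences per direction with a mean of at least 10 CPM and no overlap, the 5 largest per direction in the test of androgen effects, 10 fixed genes, the 3 largest called per direction in each list and the 6 most counted genes per line. Further list members, IGFBP3 and line-restricted genes were named after their values were seen. Some genes that the rule picks are not reported here. Alternatives were DESeq2 1.42.0, RLE size factors, no count filter, a replicate block, fits of fewer libraries, a fold threshold, and leaving out each library in turn.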

Additional observations from a re-analysis of the deposited data

Results flagged for a closer look

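The androgen effect on ACP differed between VCaP and MDAPCa2a in 1362 genes by the test of the difference itself, with edgeR's quasi-likelihood test and Benjamini-Hochberg adjustment over all genes. Among the genes named in the text, the log2 effect in VCaP minus that in MDAPCa2a was above 0 for KLK3 (5.19), TMPRSS2 (3.21), FKBP5 (3.41), STEAP4 (7.15), SEMA3G (8.65), PGC (7.72), SLC5A1 (7.65) and F3 (5.51). It was below 0 for FOLH1 (-2.92), NAALAD2 (-8.20), SEZ6 (-8.12), ADCY2 (-7.80), CSRNP3 (-7.46) and INA (-6.94). SEMA3G had no read in VCaP in stripped serum, and SEZ6, ADCY2, CSRNP3 and INA had none in MDAPCa2a in stripped serum, so their fitted values depend on the prior count.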

How the results depend on the processing

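Requiring a log2 difference of at least 1 in the test itself gave 4000 genes called between the lines with androgen, 3748 in stripped serum, 4204 on plastic and 144 for the difference of androgen effects, and 705 and 0 for androgen within VCaP and MDAPCa2a. It left 11 androgen-induced, 1 keratin, 6 calcium and phosphate, 6 steroid enzyme, 0 MHC class I, 13 interferon-stimulated and 3 tumour suppressor genes called, and 7 androgen-induced genes with different androgen effects. Fitting only VCaP and MDAPCa2a libraries gave 853 for the difference of androgen effects, 0 for androgen in MDAPCa2a and 5 keratins. Fitting only the libraries of the groups compared gave 308 for the difference of effects, 5425 in stripped serum, 2250 and 0 for androgen in VCaP and MDAPCa2a, 7 androgen-induced genes with different effects, and 5 keratins. Without the count filter 2 genes were called for androgen in MDAPCa2a. Leaving out 1 library in turn gave 6981 to 7866 genes between the lines with androgen, 7008 to 7216 in stripped serum, 7185 to 7907 on plastic, 646 to 1685 for the difference of effects, 2386 to 3994 for androgen in VCaP, 0 to 39 in MDAPCa2a, 7 to 22 interferon-stimulated genes, and 8 to 14 androgen-induced genes with different effects. IFI44L ranged from -2.82 (adjusted p 0.501) without VCaP replicate 2, since replicate 1 had no read, to 10.08 without MDAPCa2a replicate 2. The causes of the other changes were not tested. Of 2178 recomputed values for single genes or smaller counts, 2084 kept their side of the threshold, 79 lost their call and 13 gained one. With 10 CPM in place of 5, 54 genes were restricted to VCaP and 6 to MDAPCa2a, and with no read allowed in the other line 24 and 4. Over genes with at least 1 CPM the medians of chromosomes 21 and 16 were 0.79 and -0.89. With the replicate number as a block 9152 genes were called between the lines with androgen, 1630 for the difference of effects and 0 for androgen in MDAPCa2a. Same-numbered libraries of the 2 lines did not deviate together on ACP with androgen (correlation -0.0155), in stripped serum (-0.012) or on plastic (-0.0241), and no label says that a number marks a shared batch.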

Other observations

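LDOC1, a leucine zipper protein, was the 1 gene with a called androgen effect on ACP in MDAPCa2a in the fit of all lines. It had 0.0573 and 0.0505 CPM with androgen and 0.827 and 0.639 CPM in stripped serum, a log2 change of -3.66 ± 0.59 (adjusted p 0.0344 by edgeR's quasi-likelihood test). It was not called by DESeq2 (adjusted p 1), with the replicate block (0.0555), with only VCaP and MDAPCa2a libraries (0.16), with only the libraries compared (1), with the fold threshold (1), or without either androgen library (0.919 and 1) or replicate 1 in stripped serum (0.737) of MDAPCa2a. These alternatives for LDOC1 were chosen after seeing the data, and DESeq2's 1 call was another gene. In VCaP it had 12.2 and 10.8 CPM with androgen and 23 and 20.1 CPM without. The median absolute log2 change with androgen over all genes tested was 0.528 in VCaP and 0.184 in MDAPCa2a. The median absolute difference between the lines was 0.874 with androgen, 0.814 in stripped serum and 0.856 on plastic.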
